A study of Homo sapiens with 12 samples.

Results

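SMARCA4 encodes BRG1, an ATPase of the SWI/SNF chromatin remodelers. Its transcript was measured here together with those of 9 further core subunits (SMARCA2, SMARCB1, SMARCC1, SMARCC2, SMARCD1, SMARCE1, ARID1A, ARID1B and PBRM1). These 10 genes, of 61541 in the count table, were chosen by name, and SMARCA4 because it was known to be lower in the TYMS knockout libraries. All 10 had enough counts to be tested. The study sequenced total RNA from A549, a lung adenocarcinoma cell line, on day 14 after transduction. The control groups carried the non-targeting guide gNTC1 and the knockout groups a Cas9 knockout of TYMS, the enzyme that makes thymidylate, labelled TS-KO. Cells with each guide were cultured alone or co-cultured, which gives 4 groups of 3 libraries, and no further treatment was given. By the series' design, co-culture set the knockout cells beside parental A549 cells and restored their proliferation. The sources used here do not say whether the cells were clones or pools, what the partner of the co-cultured control was, whether partner cells were removed before RNA extraction, or whether replicates came from separate cultures. The p-values therefore measure the spread between libraries, which may be technical.

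SWI/SNF complexes use ATP to slide or evict nucleosomes at enhancers and promoters. Each complex holds 1 ATPase, either SMARCA4 or its paralog SMARCA2. In the canonical BAF and PBAF complexes it sits on a core of SMARCC, SMARCD, SMARCB1 and SMARCE1 subunits. ARID1A or ARID1B marks the canonical BAF complex and PBRM1 the PBAF complex. SMARCA4 and ARID1A are recurrently mutated in lung cancer, and A549 is known to carry a truncating SMARCA4 mutation. Cells without SMARCA4 are known to depend on SMARCA2.

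The libraries labelled control did not match what is known of A549. A549 is known to lack CDKN2A and MTAP by homozygous deletion. CDKN2A was at 54.7 to 116 CPM (a gene's share of the library's counts, expressed per 1000000 and scaled by edgeR's TMM factors) in the 6 libraries labelled control and at most 0.119 in the 6 knockout libraries. MTAP was at 43.8 to 79.5 CPM against 0.302 to 0.647, and the epithelial marker EPCAM at 94.4 to 119.5 against 0.149 to 0.913. The 6 epithelial markers together overlapped between guides, at a summed 10890 to 17780 CPM in the libraries labelled control and 8358 to 13700 in the knockout libraries. Summed NRF2 target genes, known to be high in A549 through its KEAP1 mutation, were at 5591 to 7564 CPM in the libraries labelled control and 11510 to 14780 in the knockout libraries. What the libraries with the 2 guides differ in beyond the guide cannot be told apart in this design, and this holds for every knockout difference below, where control stands for the libraries labelled control. TYMS was at 90.3 to 101 CPM under the control guide, 20.3 to 21.4 in knockout cells alone and 10.7 to 11.4 in co-cultured knockout cells. TYMS shares 967 exon bases with ENOSF1 and 183 with TYMSOS, both on the other strand. How the counting treated these bases is not given in the sources used here. Markers of other cell types were low but moved with the groups. The 3 leukocyte markers summed to 1.69 to 1.86 CPM in lone and 5.34 to 7.84 in co-cultured knockout libraries, and to 1.84 to 6.29 in the libraries labelled control. The 5 fibroblast markers summed to 21.7 to 24.5 CPM in lone and 12.7 to 16.7 in co-cultured knockout libraries, and to 10.9 to 20.2 in the libraries labelled control. The 3 endothelial markers summed to 1.83 to 2.60 CPM in the libraries labelled control and 0.0847 to 0.634 in the knockout libraries. COL1A2, DCN and PTPRC had at most 2 counts in any library. The part of other cells in the results was not tested. Libraries held 14921371 to 35723762 counts. In every group, deviations of libraries from the group's mean correlated with transcript GC content, in opposite directions. For replicates 1 to 3 the Spearman rho was 0.354, 0.736 and -0.757 in co-cultured knockout libraries. It was -0.547, 0.094 and 0.532 in lone knockout libraries. In the libraries labelled control it was -0.619, 0.121 and 0.587 alone and -0.472, -0.198 and 0.575 in co-culture. Deviations within a group cancel out, so their signs are linked.

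The promoters of the ATPase genes SMARCA4 and SMARCA2 are printed because these genes moved in opposite directions between the guides. Each window runs from 250 bases before to 50 bases after a RefSeq start (GRCh38.p14), 5′ to 3′ on the gene's strand. Capitals mark GGGCGG or its reverse complement CCGCCC, the core of the GC box that SP1-family factors recognise.
SMARCA4, chr19:10960780-10961079, plus strand: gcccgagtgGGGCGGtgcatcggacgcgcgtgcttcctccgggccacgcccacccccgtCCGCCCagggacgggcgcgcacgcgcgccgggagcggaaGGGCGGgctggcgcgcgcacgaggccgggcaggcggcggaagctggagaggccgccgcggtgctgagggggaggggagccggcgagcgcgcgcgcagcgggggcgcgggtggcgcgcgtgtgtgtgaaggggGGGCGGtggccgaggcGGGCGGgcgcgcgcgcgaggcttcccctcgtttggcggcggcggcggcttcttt
SMARCA2, chr9:2015097-2015396, plus strand: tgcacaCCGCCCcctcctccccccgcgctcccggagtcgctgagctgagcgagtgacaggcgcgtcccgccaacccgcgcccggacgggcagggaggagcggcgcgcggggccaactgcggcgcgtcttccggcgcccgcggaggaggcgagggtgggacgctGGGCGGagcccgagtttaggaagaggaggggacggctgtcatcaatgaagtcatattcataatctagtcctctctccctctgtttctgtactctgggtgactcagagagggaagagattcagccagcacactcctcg
The SMARCA4 window held 5 such matches, 55 CpG dinucleotides and 81.33% GC. The SMARCA2 window held 2 matches, 30 CpG and 66.67% GC. Of 35116 windows of this length, 44.95% held a match, with a median of 14 CpG and 58.67% GC. SMARCA4 has 2 windows in the table and SMARCA2 has 4, of which the one with the earliest start is shown. Counts per gene do not say which start was used, and a match is only a match of letters.

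SMARCA4 (ENSG00000127616, chr19:10960825-11079426, plus strand, GRCh38) was low in every knockout library. It was at 162, 199 and 202 CPM in the control-labelled libraries grown alone (188 ± 22.5, SD, n = 3) and at 177, 159 and 172 CPM in those co-cultured (169 ± 9.41). In knockout cells it was at 13.6, 13.5 and 13.5 CPM alone (13.5 ± 0.0492) and at 13.02, 10.9 and 12.95 CPM in co-culture (12.3 ± 1.23). No knockout library came near the range of the libraries labelled control, and each knockout library still held 221 to 364 SMARCA4 counts. The log2 fold change, knockout minus control, was -3.80 alone (SE 0.14), a 13.9-fold lower level with a 95% interval of 11.2 to 17.2. It was -3.79 in co-culture (SE 0.14), or 13.8-fold. These are descriptions without a test, because SMARCA4 was chosen for this difference. With offsets that correct for transcript GC content the values were -3.12 and -3.50. In bulk RNA, fewer cells with the transcript and less of it per cell cannot be told apart.

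A co-culture difference in SMARCA4 did not pass the test under either guide. In knockout cells the co-cultured libraries lay just below the lone ones, at a log2 fold change of -0.14 (95% interval -0.43 to 0.15, edgeR adjusted p = 0.507). Under the control guide the difference was -0.15 (interval -0.42 to 0.12, edgeR adjusted p = 1). The co-culture difference itself differed between guides by 0.01 (interval -0.39 to 0.41, edgeR adjusted p = 0.979).

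**Figure D1:**
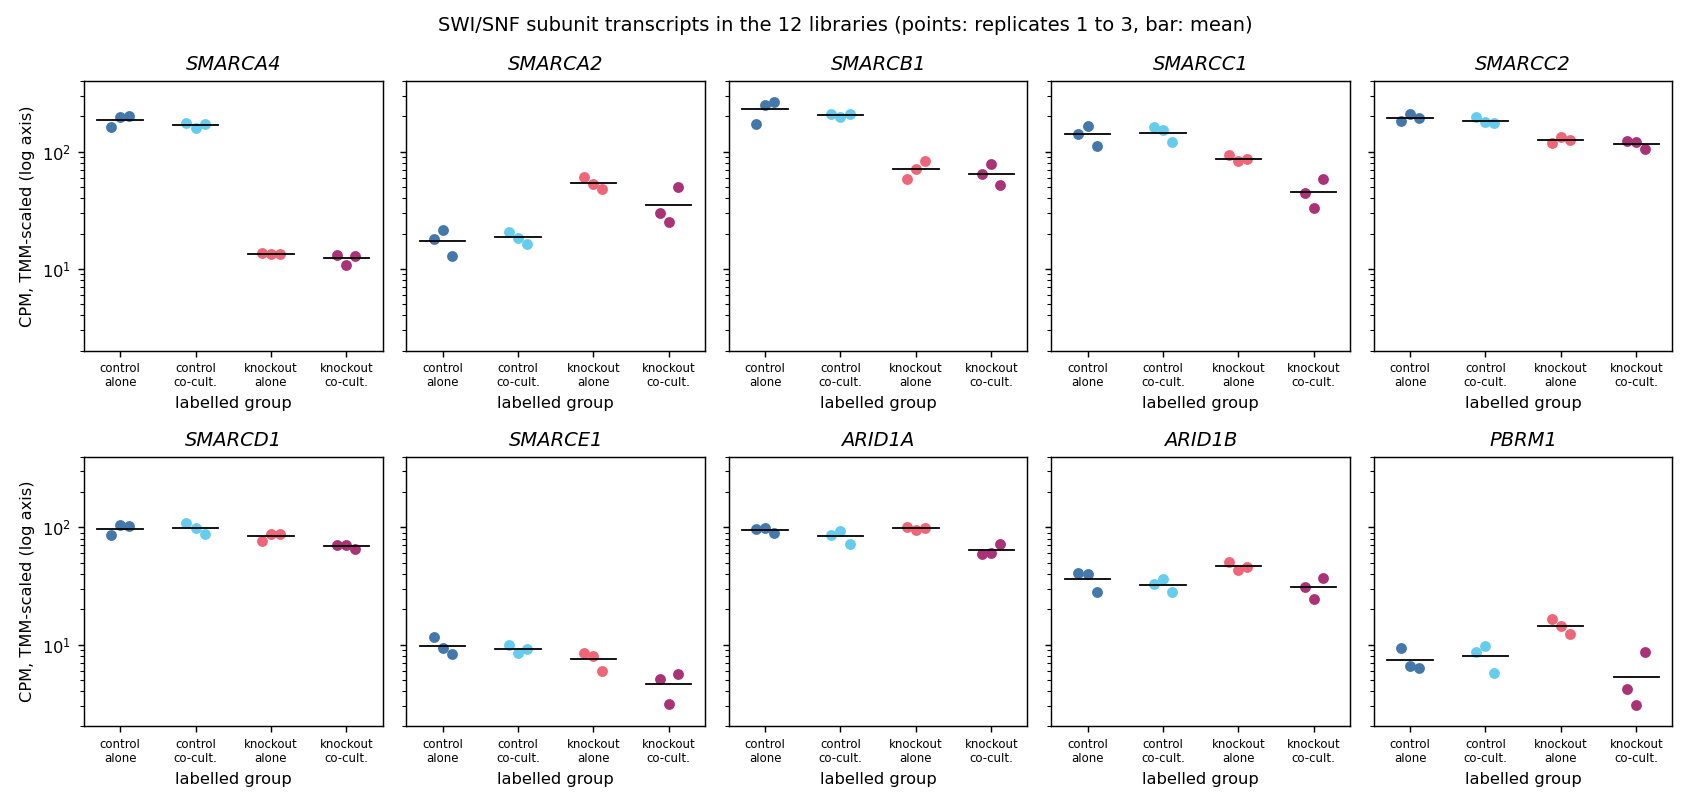
TMM-scaled CPM (log axis) of the 10 SWI/SNF subunit transcripts in the 4 labelled groups; each point is 1 library, in the order of its replicate number, and each bar is the group mean. SMARCA4 lies at 159 to 202 CPM in the libraries labelled control and at 10.9 to 13.6 in the knockout libraries, while SMARCA2 lies at 12.8 to 21.3 and 25.1 to 60.2.

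SMARCA2 (BRM, ENSG00000080503, chr9:1980290-2193624), the alternative ATPase, was higher in the knockout libraries. It was at 17.97, 21.3 and 12.8 CPM in lone control-labelled libraries (17.4 ± 4.24) and at 20.8, 18.5 and 16.4 in those co-cultured (18.6 ± 2.18). Lone knockout libraries held 60.2, 53.2 and 48.4 CPM (53.9 ± 5.89) and co-cultured ones 29.8, 25.1 and 49.9 (34.9 ± 13.1). The groups did not overlap between guides in either culture. SMARCA2 rose in knockout against control by 1.64 on the log2 scale alone (SE 0.25, edgeR adjusted p = 0.000132) and by 0.91 in co-culture (SE 0.25, adjusted p = 0.00785). Co-cultured knockout replicate 3 carried much of the second value, which was 0.57 without it (adjusted p = 0.0251). With GC offsets the SMARCA2 difference was 1.17 alone and 0.93 in co-culture. SMARCA2 exons overlap those of an antisense gene, SMARCA2-AS1, which had 0 counts in all 12 libraries.

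Per kilobase of exon the balance of the 2 ATPase transcripts was inverted between the guides. SMARCA4 made up 92.7% ± 1.94 of the summed SMARCA4 and SMARCA2 level in lone control-labelled libraries and 91.5% ± 0.888 in co-cultured ones (SD, n = 3). In lone knockout libraries its share was 21.0%, 23.0% and 24.7%, with a mean of 22.9% ± 1.84. In co-cultured knockout libraries it was 34.0%, 33.8% and 23.4% (30.4% ± 6.02), so replicate 3 lay in the range of the lone cells. The summed ATPase level was 12.8 ± 1.40 CPM per exon kilobase in lone control-labelled libraries and 11.7 ± 0.640 in co-cultured ones. It was 3.76 ± 0.320 in lone knockout libraries and 2.66 ± 0.758 in co-cultured ones, so the SMARCA2 level in knockout cells stayed below the SMARCA4 level of the libraries labelled control. SMARCA4 alone stood at 11.9 ± 1.43 CPM per exon kilobase in lone control-labelled libraries, and SMARCA2 at 2.90 ± 0.317 in lone knockout libraries. These shares contain the SMARCA4 values used to choose it and are given without a test. They are not corrected for transcript GC content, which was 61.4% for SMARCA4 and 42.9% for SMARCA2.

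**Figure D2:**
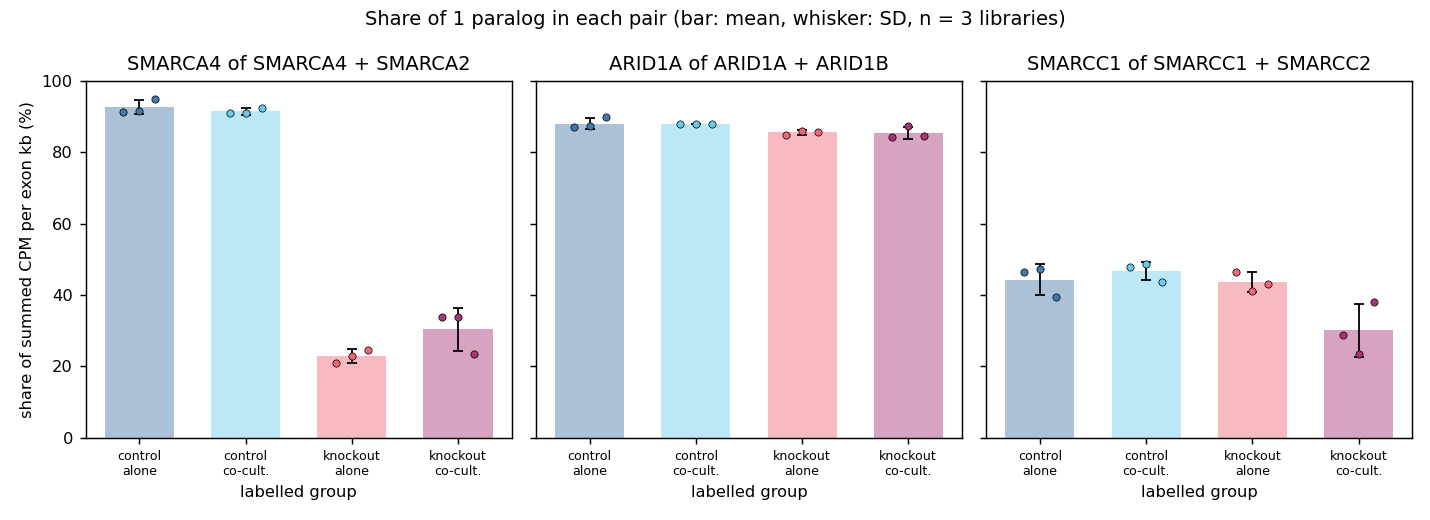
Share of 1 paralog in the summed CPM per exon kilobase of its pair (percent), for SMARCA4 with SMARCA2, ARID1A with ARID1B and SMARCC1 with SMARCC2, by labelled group; bars are means, whiskers SD and points the 3 libraries of each group. The SMARCA4 share is 92.7% and 91.5% under the control guide against 22.9% and 30.4% in knockout cells, while the ARID1A share lies between 85.4% and 88.1% in all 4 groups.

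Among the scaffold subunits of the 10 members, SMARCB1 showed the widest difference between guides in lone cells. SMARCB1 (SNF5, ENSG00000099956, chr22:23786931-23838008), the subunit lost in rhabdoid tumours, was at 173, 248 and 267 CPM in lone control-labelled libraries and at 211, 199 and 209 in co-cultured ones. Knockout libraries held 58.4, 71.4 and 83.4 CPM alone and 64.7, 77.9 and 51.6 in co-culture, well clear of every library labelled control. SMARCB1 fell by 1.69 on the log2 scale alone (SE 0.20, edgeR adjusted p = 1.39e-05) and by 1.67 in co-culture (SE 0.20, adjusted p = 1.63e-05). With GC offsets the lone value was -1.12. Its exons share 2923 bases with DERL3 on the other strand, which stayed at or below 0.209 CPM in all libraries.

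SMARCC1 (BAF155, ENSG00000173473, chr3:47585272-47782106), one of the paired scaffold proteins, was lower in knockout cells, and further lower when these were co-cultured. It was at 142, 166 and 113 CPM in lone control-labelled libraries, 162, 152 and 121 in co-cultured control-labelled libraries, 92.7, 83.6 and 85.7 in lone knockout libraries, and 44.3, 33.0 and 58.1 in co-cultured knockout libraries. These last 3 lay below all other libraries. SMARCC1 fell in knockout against control by 0.68 alone (log2, SE 0.20, edgeR adjusted p = 0.0116) and by 1.68 in co-culture (SE 0.21, adjusted p = 2.23e-05). The call in lone cells was lost without lone control replicate 2 (adjusted p = 0.0573) and with scaling by library size only (0.103).

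SMARCC2 (BAF170, ENSG00000139613, chr12:56162983-56189567), the paralog of SMARCC1, was lower in knockout cells by a similar amount in both cultures. It was at 183, 208 and 194 CPM in lone control-labelled libraries and 198, 180 and 174 in co-cultured ones, against 119, 134 and 126 in lone and 124, 121 and 106 in co-cultured knockout libraries. SMARCC2 fell by 0.63 alone (log2, SE 0.12, edgeR adjusted p = 0.000725) and by 0.66 in co-culture (SE 0.12, adjusted p = 0.000595), and the lone value was -0.39 with GC offsets. It shares 514 exon bases with MYL6, on the other strand, which ran at 711 to 1887 CPM; how the counting treated shared bases and strand is not given in the sources used here. Per exon kilobase SMARCC1 made up 44.3% ± 4.34 of the SMARCC pair in lone control, 46.7% ± 2.62 in co-cultured control and 43.7% ± 2.73 in lone knockout libraries. In the co-cultured knockout libraries its share was 28.6%, 23.5% and 38.0% (30.1% ± 7.38), below every library of the other groups. These shares are not corrected for transcript GC content, which was 46.65% for SMARCC1 and 54.37% for SMARCC2. With GC offsets the co-culture difference in knockout cells was -0.83 for SMARCC1 and -0.28 for SMARCC2, against -0.95 and -0.11 without.

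SMARCD1 and SMARCE1, further subunits of the shared core, were lower in knockout cells in co-culture, and neither difference passed the test in lone cells. SMARCD1 (BAF60A, ENSG00000066117, chr12:50084972-50100712) was at 86.5 to 104 CPM in lone control and 88.2 to 110 in co-cultured control-labelled libraries. It was at 75.7 to 88.4 CPM in lone knockout libraries, which overlapped the control range, and at 70.9, 70.2 and 64.97 in co-cultured ones, which did not. SMARCD1 fell by 0.52 in co-culture (log2, SE 0.13, edgeR adjusted p = 0.00471), and its lone difference was -0.22 (SE 0.13, adjusted p = 0.174). Its call was lost with no filter on low counts (0.0967) and when only the compared groups were fitted (0.0581).

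SMARCE1 (BAF57, ENSG00000073584, chr17:40624962-40648864), a DNA-binding subunit with an HMG box, was at 8.31 to 11.7 CPM in lone control and 8.46 to 9.86 in co-cultured control-labelled libraries. It was at 8.47, 7.97 and 5.96 CPM in lone knockout libraries and at 5.09, 3.13 and 5.56 in co-cultured ones, the lowest of the 12. SMARCE1 fell by 0.998 in co-culture (log2, SE 0.25, edgeR adjusted p = 0.00465), and its lone difference was -0.38 (SE 0.25, adjusted p = 0.200). With GC offsets that lone value was -0.99 (adjusted p = 0.00023). SMARCE1 shares 3697 exon bases with an unnamed gene on the same strand, so its counts are uncertain.

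Of the subunits that set the type of complex, ARID1A (ENSG00000117713, chr1:26693236-26782110), the DNA-binding subunit of canonical BAF, was at 96.6, 98.6 and 89.5 CPM in lone control and 85.3, 93.7 and 72.2 in co-cultured control-labelled libraries. It was at 100.4, 94.5 and 99.1 CPM in lone knockout libraries, which overlapped the lone control range with 2 of 3 above it, and at 59.2, 60.6 and 71.5 in co-cultured ones, below every other library. The lone difference was 0.05 (log2, SE 0.13, 95% interval -0.23 to 0.33, edgeR adjusted p = 0.779). ARID1A fell by 0.39 in co-culture (SE 0.13, adjusted p = 0.0225). This call was lost without control co-culture replicate 1 (0.0550) or 2 (0.104), without knockout co-culture replicate 1 (0.0772) or 2 (0.0523), and in 5 of the other settings tried (0.115 to 0.347).

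ARID1B (ENSG00000049618, chr6:156776020-157210779), the paralog of ARID1A, did not pass the test in either knockout comparison. It was at 40.4, 40.2 and 28.2 CPM in lone control and 33.1, 36.2 and 27.9 in co-cultured control-labelled libraries, against 50.3, 42.9 and 46.0 in lone and 30.9, 24.4 and 36.9 in co-cultured knockout libraries. Lone knockout libraries lay above the lone control range, at a difference of 0.36 (log2, 95% interval -0.05 to 0.76, edgeR adjusted p = 0.118). In co-culture the difference was -0.08 (interval -0.48 to 0.32, adjusted p = 0.754). ARID1A made up 88.1%, 87.9%, 85.6% and 85.4% of the ARID1 pair per exon kilobase in the lone and co-cultured control-labelled libraries and the lone and co-cultured knockout libraries, in that order.

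PBRM1 (BAF180, ENSG00000163939, chr3:52545352-52685917), the bromodomain subunit of PBAF, was higher in lone knockout cells and not in co-cultured ones. It was at 9.36, 6.53 and 6.34 CPM in lone control and 8.67, 9.76 and 5.75 in co-cultured control-labelled libraries, 16.5, 14.4 and 12.2 in lone knockout libraries, and 4.14, 3.07 and 8.62 in co-cultured ones. The lone knockout libraries lay above all others, and co-cultured replicate 3 lay within the control range. PBRM1 rose by 0.96 in lone knockout cells (log2, SE 0.35, edgeR adjusted p = 0.0309). In co-culture the difference was -0.61 (SE 0.35, adjusted p = 0.162), and -1.16 without knockout co-culture replicate 3 (0.00299). With GC offsets the co-culture value was -0.61 and passed as lower (edgeR adjusted p = 0.0035). The lone call was lost without lone control replicate 2 (0.0995) or 3 (0.113), or without lone knockout replicate 1 (0.0952) or 2 (0.0663), and its value was 0.40 with GC offsets (0.038).

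**Figure D3:**
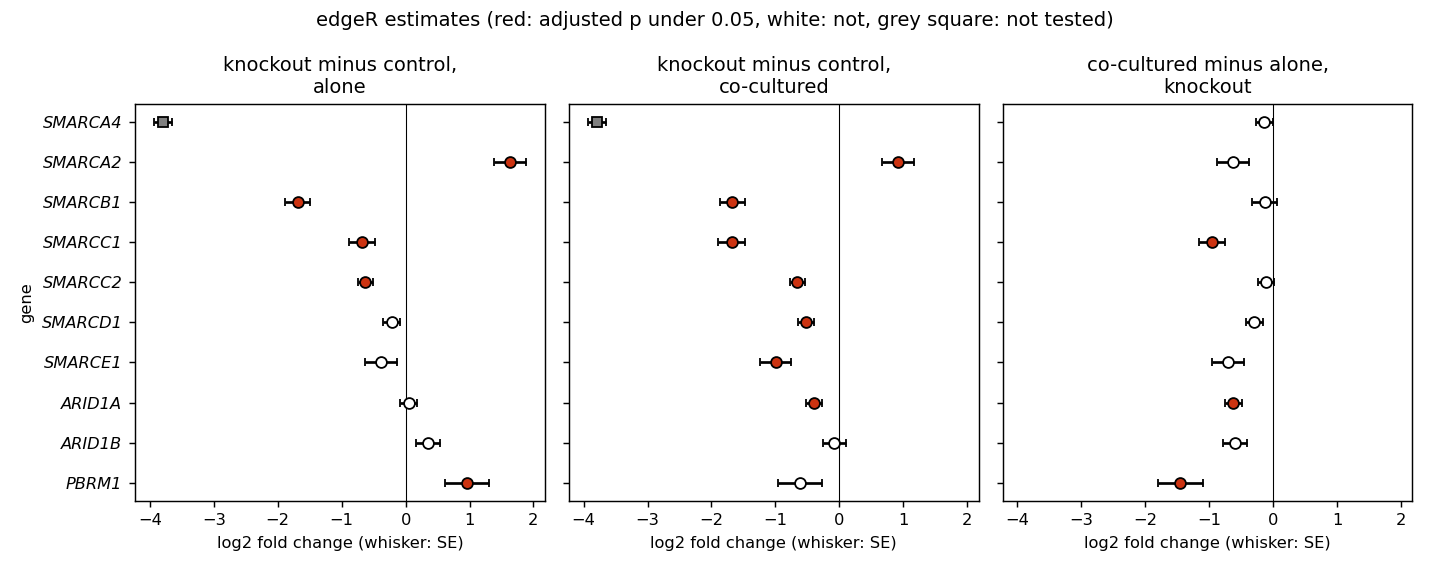
Log2 fold changes of the 10 subunits (points) with their standard errors (whiskers) in 3 comparisons; red points passed an edgeR adjusted p under 0.05, white points did not, and the grey squares mark SMARCA4, which was not tested between guides. SMARCB1 and SMARCC2 lie at nearly the same place in both knockout comparisons (-1.69 and -1.67, -0.63 and -0.66), and all 10 points lie below 0 in the co-culture comparison of knockout cells.

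Of the 9 members besides SMARCA4, 5 passed the test between guides in lone cells: SMARCA2 and PBRM1 were higher, and SMARCB1, SMARCC1 and SMARCC2 lower. Of all 16768 genes tested, 56.6% passed there, 28% higher and 28.6% lower. In co-culture 7 of 9 passed, with SMARCA2 higher and SMARCB1, SMARCC1, SMARCC2, SMARCD1, SMARCE1 and ARID1A lower, where 49.4% of all genes passed, 24.1% higher and 25.3% lower. Read against these shares, the counts are not a result about the subunits as a group. The median log2 fold change of the 9 was -0.22 alone and -0.61 in co-culture, beside 0.09 and -0.02 over all genes. These medians are not corrected for GC content. With GC offsets the middle value of the 9 was SMARCD1 at 0.04 alone, beside a median of 0.01 over all genes. In co-culture it was SMARCC2 at -0.60, beside 0.03. The members called in both comparisons (SMARCA2, SMARCB1, SMARCC1 and SMARCC2) kept their direction. The 2 comparisons share no libraries, but they share the estimate of the spread and whatever else differs between the guides. This is therefore not an independent repeat, and the share of all genes that did the same is not given here.

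In knockout cells, co-culture went with lower levels of several subunits, in the comparison in which the leukocyte markers were higher and the fibroblast markers lower. All 10 members had a log2 fold change below 0, co-cultured minus alone, and 3 passed the test: SMARCC1, ARID1A and PBRM1. Of all genes 11.4% passed, 5.97% higher and 5.4% lower. The 3 fell by 0.95 (SMARCC1, SE 0.20, edgeR adjusted p = 0.0124), by 0.62 (ARID1A, SE 0.13, adjusted p = 0.0108) and by 1.45 (PBRM1, SE 0.35, adjusted p = 0.0212). The co-cultured libraries lay below all lone ones for 7 members, and 14.9% of all genes did so. The median of the 10 was -0.61, beside 0.01 over all genes. Of the rest, SMARCA2 was at -0.63 (adjusted p = 0.108), SMARCE1 at -0.71 (0.0815) and ARID1B at -0.60 (0.0562). SMARCB1 at -0.13, SMARCC2 at -0.11 and SMARCD1 at -0.29 had smaller differences, with adjusted p of 0.674, 0.553 and 0.151.

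The calls in this comparison changed with the third co-cultured knockout library and with a correction for GC content. Without that library 6 members passed, SMARCA2 (-0.97, edgeR adjusted p = 0.00237), SMARCE1 (-0.87, 0.0199) and ARID1B (-0.75, 0.00791) joining the 3, and 33.4% of all genes passed. Without co-cultured knockout replicate 1 none of the members passed, with 3.13% of all genes. Over the 28 tested SWI/SNF subunit genes the co-culture difference correlated with transcript GC content at a Pearson r of 0.59 and a Spearman rho of 0.63, a description across genes that share the same libraries. After GC offsets, which can also remove a real difference tied to GC content, the coefficients were 0.16 and 0.05 and 7 members passed: SMARCB1, SMARCC1, SMARCC2, SMARCD1, ARID1A, ARID1B and PBRM1, with 29.1% of all genes. Under that correction SMARCC1 was at -0.83, ARID1A at -0.81 and PBRM1 at -0.98, while SMARCA2 and SMARCE1 were at -0.26 and -0.09. For knockout against control in lone cells the Pearson r over the 28 genes, SMARCA4 included, was -0.56 and the Spearman rho -0.55. After GC offsets these were -0.13 and -0.07. The part of GC content in the uncorrected values was not tested beyond this.

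**Figure D4:**
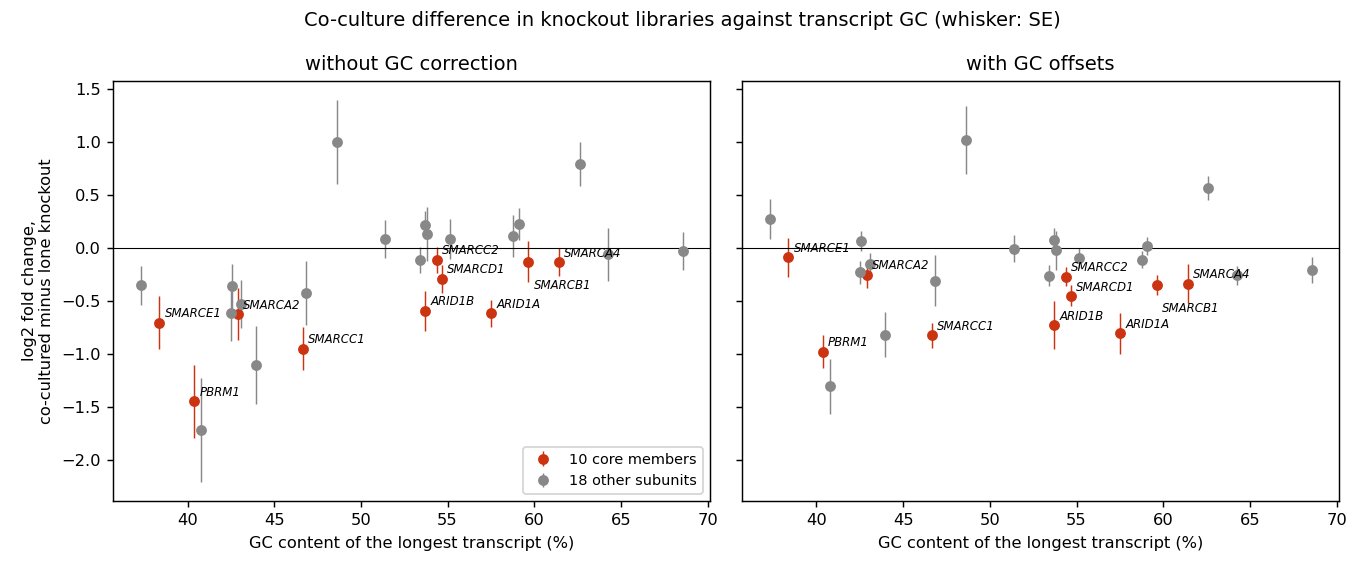
Log2 fold change of co-cultured against lone knockout libraries (vertical axis, whiskers SE) against GC content of the longest transcript (percent) for the 10 members (red) and 18 other SWI/SNF subunits (grey), without (left) and with (right) GC offsets. GC-poor transcripts such as PBRM1 (40.4% GC) lie lowest on the left, and the Pearson correlation over the 28 genes is 0.59 on the left and 0.16 on the right.

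Under the control guide no member passed the test on co-culture. The 10 log2 fold changes ran from -0.18 to 0.12, 0 passed the test and 0 had an unadjusted p under 0.05. Over all genes 0% passed by edgeR and 3.22% had an unadjusted p under 0.05; DESeq2 called 0 as well. The difference of the 2 co-culture responses, tested as an interaction, passed for none of the 10 members by edgeR and for 2 by DESeq2, with 1.8% of all genes passing by edgeR and 5.23% by DESeq2. It had an unadjusted p under 0.05 for 3 members (18.7% of all genes): SMARCC1 at -1.0003 (SE 0.29, adjusted p = 0.107), PBRM1 at -1.57 (SE 0.49, adjusted p = 0.139) and ARID1A at -0.44 (SE 0.18, adjusted p = 0.233). Without knockout co-culture replicate 3, 3 members passed, SMARCC1 (-1.22, edgeR adjusted p = 0.00673), PBRM1 (-2.12, 0.00338) and SMARCA2 (-1.07, 0.0147), with 21.3% of all genes.

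Of 19 further SWI/SNF subunits 18 could be tested, ACTL6B being too low. Between guides in lone cells 1 passed higher and 6 lower, where 28% and 28.6% of all genes did. In co-culture 2 passed higher and 8 lower, where 24.1% and 25.3% of all genes did. The median was -0.18 alone and -0.45 in co-culture, beside 0.09 and -0.02 over all genes. SMARCD2, the paralog of SMARCD1, was at 436, 598 and 726 CPM in lone control-labelled libraries and at 129, 147 and 170 in lone knockout libraries. SMARCD2 fell by 1.98 alone (log2, SE 0.20, edgeR adjusted p = 4.00e-06) and by 1.69 in co-culture (adjusted p = 1.59e-05). DPF1, a PHD-finger subunit known from neuronal BAF, fell by 1.33 alone (SE 0.21, adjusted p = 0.000147), from 20.1, 23.3 and 28.2 CPM to 8.21, 10.2 and 10.2. Its difference in co-culture was -0.32 (SE 0.20, edgeR adjusted p = 0.210) and did not pass. With GC offsets the DPF1 values were -0.60 alone and -0.03 in co-culture. DPF3, another PHD-finger paralog, was the 1 subunit called higher in lone cells, at 1.41 (SE 0.47, adjusted p = 0.0199), on low levels of 1.59 to 1.86 CPM against 0.496 to 0.739. It is named because it was the 1 such gene, after its values were seen.

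On co-culture of knockout cells 2 of these 18 subunits passed, a share close to the 11.4% of all genes. ARID2, the ARID subunit of PBAF, fell by 1.72 (log2, SE 0.49, edgeR adjusted p = 0.0416), from 13.4, 10.3 and 7.55 CPM alone to 2.16, 1.37 and 6.01. DPF1 rose by 0.79 (SE 0.21, adjusted p = 0.0302), from the lone values above to 18.4, 18.3 and 12.6 CPM. As for PBRM1 and SMARCA2, replicate 3 lay nearest to the lone libraries for both genes. The ARID2 call was lost in 9 and the DPF1 call in 5 of the 12 fits that each left out 1 library, with adjusted p of up to 0.174 and 0.134. ARID2 was at -2.58 without knockout co-culture replicate 3.

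Of 5 tested neighbours of SMARCA4 on chromosome 19, 4 fell between guides without GC correction, at smaller values than SMARCA4. CARM1, an arginine methyltransferase gene that starts 89.3 kb before SMARCA4, was at 194 to 295 CPM in lone control and 83.5 to 116 in lone knockout libraries, a fall of 1.34 (log2, SE 0.20, edgeR adjusted p = 0.00012). YIPF2 and TIMM29 fell by 1.65 and 0.90 alone (adjusted p = 0.000103 and 0.00199). On the other side SPC24, a kinetochore gene, fell by 1.93 alone and by 1.05 in co-culture (adjusted p = 2.53e-06 and 0.000372). KANK2, which starts 203 kb after SMARCA4, was at -0.26 (adjusted p = 0.0834) and -0.29 (0.0654), and at 0.18 in lone cells after GC offsets. The corresponding SMARCA4 values were -3.80 and -3.79, as in the plot of neighbours, and the lone value was -3.12 with GC offsets. Transcript GC content was 61.86% for CARM1, 61.09% for YIPF2 and 61.05% for TIMM29, near the 61.41% of SMARCA4. It was 53.43% for SPC24. Apart from KANK2, neighbour values with GC offsets are not given here. CARM1 shares 886 exon bases with YIPF2, on the opposite strand. Of all genes 28.6% passed as lower in lone cells, so a run of lower neighbours is read against that share.

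**Figure D5:**
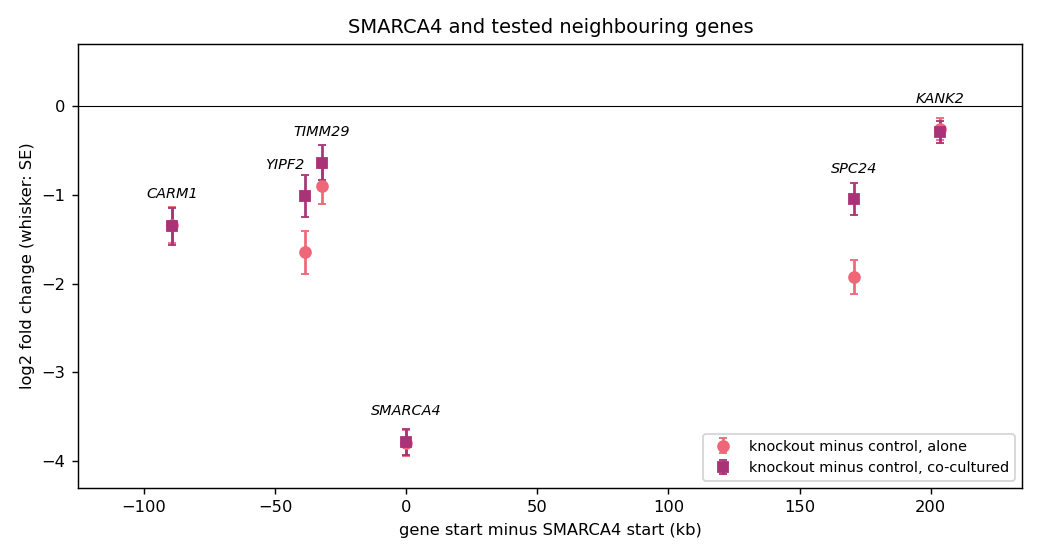
Log2 fold change of knockout against control-labelled libraries, alone (circles) and co-cultured (squares), with SE whiskers, for SMARCA4 and 5 tested neighbours, by distance of the gene start from that of SMARCA4 in kilobases. SMARCA4 lies at -3.80 and -3.79, and the 5 neighbours lie between -1.93 and -0.26.

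The 4 genes whose log2 CPM most resembled that of SMARCA4 over the 12 libraries were ELFN1-AS1, ERBB3, ADGRL1 and TMEM125. Their Pearson r with SMARCA4 was 0.99893, 0.99869, 0.99853 and 0.9985. This pattern is common: 15.08% of 10261 genes with a mean of at least 5 CPM had an r over 0.9. ERBB3, a receptor tyrosine kinase gene, averaged 28.1 and 26.3 CPM in lone and co-cultured control-labelled libraries and 1.38 and 1.42 in knockout libraries. ADGRL1, an adhesion receptor gene, averaged 174 and 157 CPM against 7.53 and 7.19. ELFN1-AS1 and TMEM125 had 0 counts in all 6 knockout libraries and averaged 14.95 and 18.1 CPM in lone control-labelled libraries. The likeness follows the 2 guides, and the 12 libraries are not independent points for it.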

How the data were processed

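Gene counts came from 12 RNA libraries. The authors deposited raw whole-number counts per Ensembl gene. The submitters' processing notes name GRCh38 (hg38), STAR 2.7.9a, featureCounts and FastQC, with R 4.2.1 and DESeq2 1.36.0; annotation and strand setting are not given in the sources used here. The library kit is NEBNext Ultra RNA, per the labels' protocols. GENCODE 29 held 58366 of the 61541 IDs and gave symbols, positions, lengths and GC content.

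The counts were tested with edgeR 4.0.16 in R 4.3.3 (quasi-likelihood test, robust, TMM scaling, filterByExpr with a minimum count of 10, 16768 genes). All 12 libraries were fitted as 4 group means, leaving 8 residual degrees of freedom. Calls are Benjamini-Hochberg adjusted p under 0.05 over all genes; intervals are 95%. The biological coefficient of variation was 22.09%. The fit was checked on simulated counts. Log2 CPM for the likeness used a prior count of 2.

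Members and lists were chosen with earlier results of these data known. Named genes are the members; per other list, the 2 smallest p in lone knockout against control and in knockout co-culture; the 4 genes most like SMARCA4; the nearest tested neighbours on either side of it; and TYMS; some of these are not reported here. Alternatives were other scaling, DESeq2 1.42.0, no filter, only the compared groups, GC offsets (a lowess per library on transcript GC), a replicate block and leaving out each library. Replicate numbers were not found to pair the samples across all 4 groups.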

Additional observations from a re-analysis of the deposited data

Results flagged for a closer look

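TYMS, the targeted gene, differed between guides in its change on co-culture: the difference of the log2 changes, knockout minus control, was -0.89 (SE 0.15, edgeR adjusted p = 0.0107). It fell by 0.92 from lone to co-cultured knockout cells, from 20.3 to 21.4 CPM down to 10.7 to 11.4, and differed by -0.03 under the control guide. TYMS shares exon bases with ENOSF1 and TYMSOS, and how these were counted is not given.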

How the results depend on the processing

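Counts of called genes moved most for knockout co-culture. The lists tested held 10 members, 18 other SWI/SNF subunits, 17 remodeler ATPases and 20 Polycomb subunits. Of all 16768 genes, 1907 were called on knockout co-culture, 3347 by DESeq2, 4877 with GC offsets and 4186 with block and GC offsets. The all-gene calls were 1420 with library size only, 3340 of 38159 with no filter and 664 of 15719 with only the compared groups. Leaving out each library gave 536 to 5680. Members called there (3) were 5 by DESeq2, 7 with GC offsets, 7 with the replicate block and GC offsets, 1 when only the compared groups were fitted and 0 to 6 leaving out each library; for the interaction (0) they were 2 by DESeq2, 3 with GC offsets, 2 with block and GC offsets, 2 with no filter and 0 to 3 leaving out each library. Members between guides alone (5) ranged from 3 to 5 leaving out each library, where 7959 to 10525 of all genes were called. In the same order of settings, other SWI/SNF subunits on knockout co-culture (2) were 4, 5, unmoved and 0, also 1 with library size only, 4 with no filter and 0 to 7 leaving out each library. Remodeler ATPases there (6) were 12, 14, 13 and 1, also 2 with library size only, 11 with no filter and 1 to 14. Polycomb subunits there (3) were 5, 10, 9 and 0, also 7 with no filter and 0 to 15. With GC offsets, with or without the block, SWI/SNF subunits between guides were 12 alone and 16 in co-culture (6 to 13 in co-culture leaving out each library), and ATPases in co-culture 11 and 10 (5 to 12). Polycomb subunits in co-culture were 8 to 13 leaving out each library. Between guides GC offsets called 10558 of all 16768 genes alone and 10468 in co-culture, or 10206 and 10131 with the block. Co-cultured guides gave 7145 to 8892 calls leaving out each library. The interaction called 301 of all genes, 877 by DESeq2, 1422 with GC offsets and 872 with block and GC offsets. It called 303 with library size only, 1342 of 38159 with no filter and 119 to 3623 leaving out each library. For the interaction, SWI/SNF subunits were 1 by DESeq2, 2 with GC offsets, 2 with no filter and 0 to 4; ATPases 1, 2, 2 and 0 to 11 (2 with block and GC offsets); Polycomb 1 with GC offsets, 1 with block and GC offsets, 1 with library size only, 2 with no filter and 0 to 11.

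Direction turned for values near 0. With GC offsets SMARCA4 on control co-culture was 0.0452, its interaction -0.38, SMARCD1 alone 0.0399 and KANK2 alone 0.18; with block and GC offsets these were 0.0363, -0.37, 0.0408 and 0.18. The SMARCA4 interaction was -0.11 with library size only and -0.0528 to 0.11 leaving out each library. ARID1A alone was -0.0077 with DESeq2 size factors and by DESeq2, and -0.0212 to 0.0675 leaving out each library. With no filter SMARCB1 and SMARCC2 on knockout co-culture were 0.0032 and 0.0165, and ARID1B between co-cultured guides 0.0046. Leaving out each library, that SMARCB1 value was -0.30 to 0.0092 and that ARID1B value -0.23 to 0.038. The cause was not tested. With the longest transcript as length the ARID1A share was 76.9%, 76.5%, 72.7% and 72.5%, and the SMARCC1 share 32.3%, 34.5%, 31.7% and 20.6%. Of 524 single-gene values under other settings 457 kept direction and call, 25 lost and 24 gained a call; of 792 leaving out 1 library, 731 kept both, 41 lost and 10 gained a call. On knockout co-culture 1907 genes were called, 3347 by DESeq2 and 4877 with GC offsets, and calls were 52.49% higher against 69.65% with library size only. That scaling moved the all-gene median alone from 0.09 to 0.24. Member calls on knockout co-culture were lost for SMARCC1 without lone replicate 1 or co-cultured replicate 1 (adjusted p 0.0519 and 0.0667), for ARID1A without co-cultured replicate 1 (0.0726) and with no filter (0.0915), and for PBRM1 without lone replicate 1 or 2 or co-cultured replicate 1 or 2 (0.0668 to 0.115) and with library size only (0.0596).

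The replicate block was added although the numbers did not pair the libraries across all 4 groups. The 18 same-numbered pairs had deviations correlated at -0.603 to 0.491, 7 of them over 0.1. Of 36 matches of a library to another group, 13 were best with its own number. Outside the co-cultured knockout group, pairs of replicate 1 correlated at 0.189 to 0.491 and pairs of replicate 3 at 0.308 to 0.412. Pairs of replicate 2 there correlated at -0.0735 to -0.0242. Co-cultured knockout replicate 3 correlated with the replicate 1 libraries of the other groups at 0.357 to 0.639. With the replicate block member counts were 5, 7, 3, 0 and 0, the same as without it, and on knockout co-culture other SWI/SNF subunits were 0, ATPases 3 and Polycomb subunits 1. The order is between guides alone and in co-culture, on co-culture of knockout and control cells, and the interaction. All-gene calls with the block were 9067, 7781, 1080, 0 and 179 of 16768 in that order. SMARCE1, PBRM1 and ARID2 stayed under 20 CPM in every library, where counting error weighs more than at higher levels. DPF3 was lower still in lone libraries, and SMARCA4 was at 10.9 to 13.6 CPM in the knockout libraries.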

Other observations

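Other remodeler ATPases outside SWI/SNF were described from a list of 17 genes, all of them tested. Between guides in lone cells 5 passed higher and 2 lower, where 28% and 28.6% of all genes did. The median log2 fold change was 0.55, beside 0.09 over all genes. In co-culture 2 passed higher and 3 lower, where 24.1% and 25.3% of all genes did, with a median of -0.43 beside -0.02. CHD5, a NuRD-type remodeler, fell by 2.32 (SE 0.20, edgeR adjusted p = 7.19e-07), from 21.1, 25.6 and 28.5 CPM in the libraries labelled control to 4.28, 5.33 and 5.48. EP400, the ATPase of the TIP60 complex, rose by 0.85 (SE 0.12, adjusted p = 5.22e-05), from 73.3, 60.3 and 66.6 CPM to 119.5, 127 and 115. On co-culture of knockout cells 16 of 17 lay below 0, with a median of -1.09 beside 0.01 over all genes. Of these genes 6 passed, all lower, where 5.4% of all genes passed lower. This count ran from 1 to 14 leaving out each library, the 14 coming without co-cultured replicate 3, where 33.4% of all genes passed. With GC offsets it was 14, where 29.1% of all genes passed. EP400 fell by 0.77 (SE 0.12, adjusted p = 0.00161), to 72.4, 65.6 and 74.0 CPM. CHD7, an ATPase of neural crest development, fell by 1.15 (SE 0.29, adjusted p = 0.0265), a call lost without any one of the 6 knockout libraries except co-cultured replicate 3.

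Polycomb subunits, which oppose SWI/SNF at many loci, were described from 20 genes. Between guides in lone cells 2 passed higher and 10 lower, and in co-culture 2 higher and 11 lower. Of all genes 28% passed higher and 28.6% lower alone, and 24.1% higher and 25.3% lower in co-culture (56.6% and 49.4% in either direction). The medians were -0.47 and -0.49, beside 0.09 and -0.02 over all genes. CBX7, a reader of methylated H3K27, fell by 2.20 (SE 0.21, edgeR adjusted p = 2.24e-06), from 29.1, 34.9 and 40.8 CPM to 6.48, 7.12 and 9.19. CBX2 fell by 1.61 (SE 0.17, adjusted p = 5.54e-06), from 115, 138 and 156 CPM to 38.7, 44.7 and 50.9. On co-culture of knockout cells 3 passed, 2 higher and 1 lower, where 11.4% of all genes passed, 5.97% higher and 5.4% lower. The 1 lower was PHF19, which fell by 0.65 (SE 0.17, adjusted p = 0.0317), a call lost in 5 of the fits that left out 1 library. Under the control guide no gene of either list passed the test on co-culture by edgeR or DESeq2, and 0 of them had an unadjusted p under 0.05. The log2 fold changes reached -0.72 among the ATPases and -0.27 among the Polycomb subunits.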
